A study of Homo sapiens with 10 samples.

Results

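The comparison described here is the response of SKBR3 cells to a duplex RNA against Che-1, measured across genes on 4 of the 10 arrays of the series. SKBR3 is a human breast cancer line with amplified ERBB2, and the labels describe it as expressing mutant p53. The members were taken by title: 2 arrays of cells transfected with a control duplex (siControl) and 2 of cells transfected with the Che-1 duplex (siChe-1). All 4 RNA samples were taken 48 h after transient transfection, and 6 micrograms of total RNA per sample were labelled with biotin for Affymetrix whole-transcript arrays. The other 6 arrays are 3 siControl and 3 siChe-1 samples of MDA-468, a basal-like breast cancer line that the labels also give as expressing mutant p53. They were used only to ask where the SKBR3 response differed. The labels name a single reagent against Che-1 and list no untransfected cells, so a response to loss of Che-1 and a response to the duplex itself cannot be told apart. Nothing in the labels says that the replicates came from separate cultures. The p-values therefore measure only the spread between these arrays, which may be technical.

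Che-1 is the protein encoded by AATF, a nuclear protein found at RNA polymerase II and in the nucleolus, with roles in gene transcription, in the answer to DNA damage and in building the small ribosomal subunit. Double-stranded RNA in the cytoplasm is sensed by RIG-I-like helicases and in endosomes by TLR3. These receptors signal through adaptor proteins and kinases to the factors IRF3 and NF-kappaB, which switch on interferon beta, the interferon lambdas and inflammatory genes. Secreted interferon then acts back on the cells through JAK kinases and STAT and IRF factors, which bind the interferon-stimulated response element and induce a large set of antiviral genes.

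The labelled cell type was checked against its markers. On the log2 scale of the deposited values, ERBB2 lay between 12.15 and 12.40 on the 4 arrays, and 7 of 8 markers of luminal, ERBB2-amplified epithelium passed the filter. The remaining marker, CDH1, the epithelial cadherin, lay under the filter level of 5.68. It read 5.22 and 5.02 on the siControl arrays and 4.84 and 5.26 on the siChe-1 arrays. Passing the filter did not by itself mark the cell type. The filter was also passed by 3 of 4 basal-like, 5 of 7 fibroblast and 3 of 6 leukocyte markers. Fewer endothelial (2 of 6) and adipocyte markers (1 of 5) passed. The luminal list had the highest mean, at 10.83 on siChe-1 replicate 2 against 7.42 for the basal-like list. With siChe-1, 5 of 7 tested luminal markers lay wholly lower and 2 wholly higher, and 3 of 3 basal-like ones wholly higher, without a call. Over all genes tested, 37.6% lay wholly lower and 14.4% wholly higher. No shift of cell type is read from so few genes. Of the leukocyte markers, PTPRC, which is found on nearly all white blood cells, read 3.24 and 3.25 with siControl and 3.18 and 3.41 with siChe-1, and CD68, a lysosomal protein of macrophages and other cells, was the only marker of any cell type that passed the test (7.19 and 6.60 against 8.40 and 8.36).

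AATF, the targeted gene, read 8.69 and 8.68 on the siControl arrays and 8.09 and 7.97 on the siChe-1 arrays. Both siChe-1 arrays lay below both siControl arrays. The difference was -0.66 ± 0.15 (SE) on the log2 scale, 63.3% of control (95% interval of the difference -1.0 to -0.31, limma adjusted p = 0.0419, n = 2 against 2). The call was lost without siControl replicate 1 (adjusted p = 0.261), without siControl replicate 2 (adjusted p = 0.382), with no filter (0.0558) and with the replicate number as a block (0.132), while the size stayed between -0.60 and -0.72 when single arrays were left out. None of the other 9 genes of AATF's nucleolar complex and its neighbours on the list passed the test. NGDN, which joins AATF and NOL10 in the small-subunit processome, read 8.62 and 8.75 against 9.09 and 8.42, and NOL10 read 8.98 and 9.22 against 9.01 and 8.81, so that the arrays of both groups overlapped for each of them.

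Many genes rose steeply, while the genes that fell did so by small amounts. Of 12892 genes tested, 651 (5.05%) passed an adjusted p of 0.05 in limma, with 416 higher (3.23%) and 235 lower (1.82%) in siChe-1. Rises ran from 0.63 to 8.36 on the log2 scale with a median of 1.27. Falls ran from -0.64 to -1.64 with a median of -0.83. More than 4-fold changes were seen for 123 called rises and 0 called falls, and 48 rises exceeded 16-fold. A test on 2 arrays against 2 cannot go below p = 0.333 by exact permutation, so significance rests on the fit across all genes.

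The replicates were set against each other for every call. All 651 called genes had both siChe-1 arrays on the same side of both siControl arrays. Over all genes tested, 14.4% lay wholly higher and 37.6% wholly lower in this way. All 651 changes also exceeded the larger of the gene's 2 replicate differences, and 405 of the 416 rises and 188 of the 235 falls were more than 2 times that difference. To be called, a change must already be large against the replicate differences. These counts therefore follow mostly from the test and are no independent evidence of agreement. Replicates correlated with r = 0.991 for siControl and 0.976 for siChe-1, against 0.904 to 0.935 between groups (across genes, which are not independent replicates). The siChe-1 pair was the looser one. Its second array lay below the first for 217 of the 235 falls and 317 of the 416 rises, against 7537 of all 12892 genes. The median change of the called falls was -0.68 on replicate 1 and -0.98 on replicate 2, while that of the called rises was 1.35 and 1.22. Lower calls became far more frequent over all genes without siChe-1 replicate 1. List counts given below for that setting are to be read against this shift, not as falls of the list. The number of calls depended on single arrays. It was 383 (321 higher and 62 lower) without siControl replicate 2, 4214 (1184 higher and 3030 lower) without siChe-1 replicate 1 and 1062 without siChe-1 replicate 2. Of the 140 called genes named by rule, 25 lost their call when a siControl array was left out, and this is stated beside each one that is described below.

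**Figure D1:**
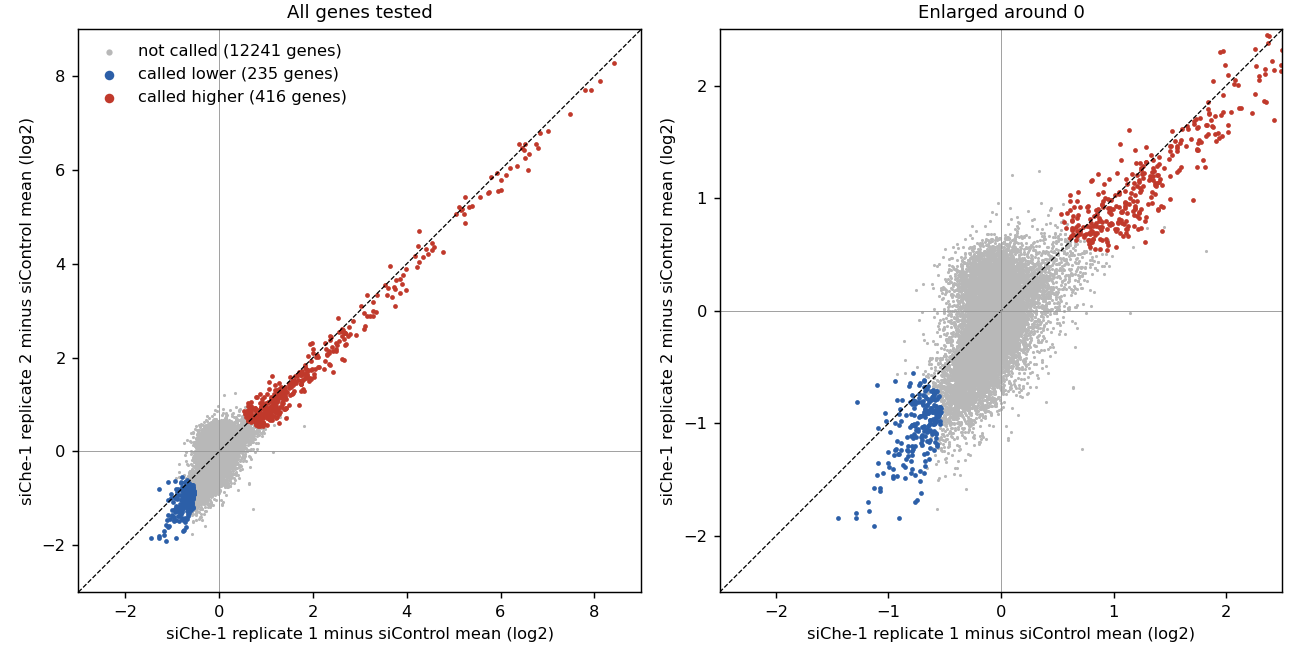
Change of each of the 12892 genes on siChe-1 replicate 1 (horizontal) and replicate 2 (vertical), each minus the mean of the 2 siControl arrays, in log2 units, with called genes coloured, the dashed line marking equal change and the right panel enlarged around 0. Large rises lie along the line, while most of the 235 called falls lie under it, further down on replicate 2.

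The 15 largest rises comprised the antiviral genes IFIT1, IFIT2, IFIT3, IFI44, IFITM1, MX1, OAS1, DDX60L, SAMD9, TRIM22, HERC5 and PARP14, the chemokine CXCL10, and the interferons IFNL1 and IFNL2. IFIT2, which blocks translation of viral RNA, read 4.27 and 4.15 with siControl and 12.64 and 12.50 with siChe-1, a rise of 8.36 ± 0.16 (SE, adjusted p = 8.22e-09). IFIT1, which binds RNA lacking the host's cap methylation, read 4.64 and 4.90 against 12.88 and 12.67. MX1, a GTPase that traps viral nucleocapsids, read 4.75 and 4.81 against 12.58 and 12.49. In each of these the replicates of a group lay within 0.3 of each other and the groups were more than 7 units apart. A siControl value under the filter level of 5.68 is close to background, so the fold of such a gene is a measured ratio of array signals rather than a ratio of transcript numbers. This held for 73 of the 416 rises and for 32 of the 48 that exceeded 16-fold.

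**Figure D2:**
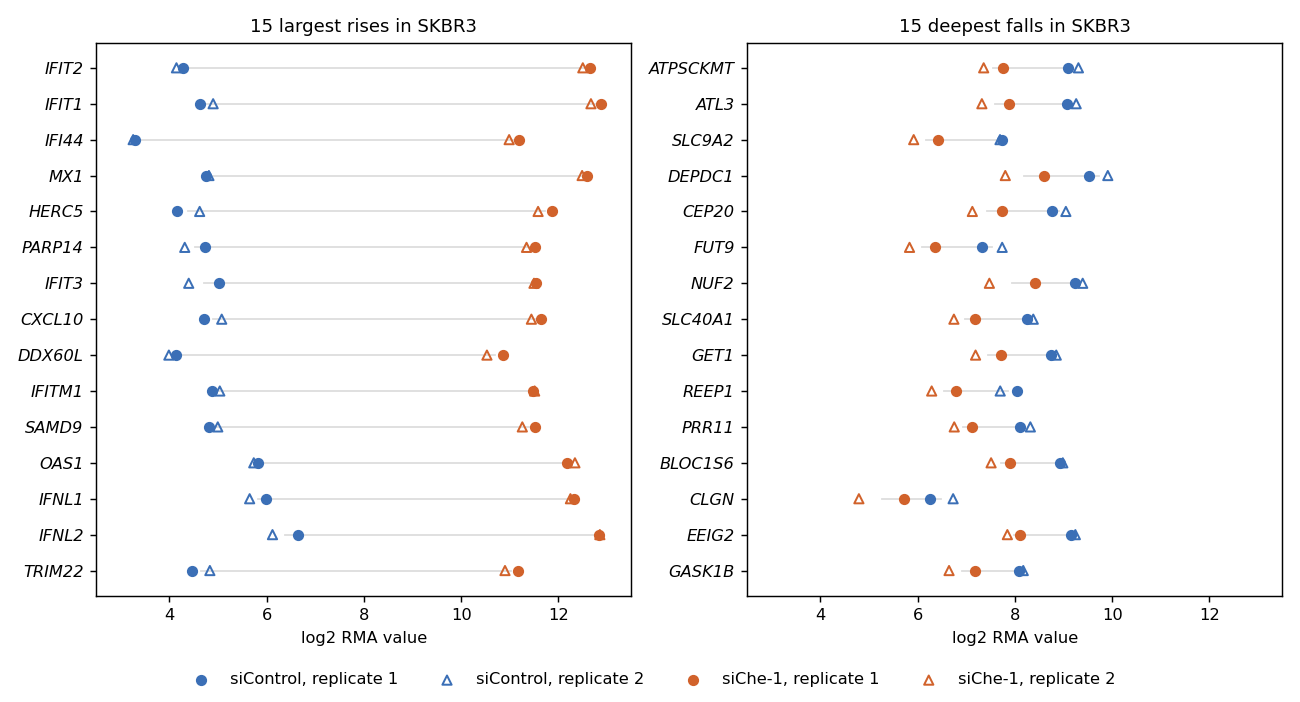
Log2 RMA value on each of the 4 SKBR3 arrays for the 15 largest rises (left) and the 15 deepest falls (right), with filled circles for replicate 1 and open triangles for replicate 2. The groups are far apart on the left. On the right the gaps are smaller, and siChe-1 replicate 2 is the lowest array for every gene.

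Interferons themselves rose. Of 11 listed interferon ligands 10 had a probe set and 4 passed the filter, IFNB1 only through its siChe-1 arrays. All 4 were called higher. IFNB1, interferon beta, read 4.06 and 4.35 with siControl and 10.79 and 10.22 with siChe-1, a rise of 6.30 ± 0.21 (SE, adjusted p = 8.18e-08). IFNL1, the first of the epithelial interferon lambdas, read 5.98 and 5.65 against 12.31 and 12.25, a rise of 6.47 ± 0.17 (SE, adjusted p = 2.24e-08). IFNL2 read 6.65 and 6.12 against 12.84 and 12.85, and IFNL3 read 8.06 and 7.48 against 12.82 and 12.84. These last genes are near-identical copies, so their probe sets may not separate them and their single values are uncertain. The groups were apart by many times the replicate difference for all 4 ligands.

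The other 6 ligands lay under the filter and were not tested. IFNA2, an interferon alpha of immune cells, read 3.52 and 3.08 against 6.31 and 5.64, and IFNA5 read 4.15 and 4.41 against 6.61 and 6.32. IFNE, an epithelial interferon of the reproductive tract, read 3.77 and 4.03 against 5.23 and 4.51, and IFNW1 read 4.18 and 3.94 against 4.54 and 4.42. IFNG, made by T and NK cells, and IFNK overlapped between groups. With no filter, 6 of the 10 ligands passed the test.

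Of 9 interferon receptor chains and JAK kinases only JAK2, which serves the interferon gamma receptor, was called, and 3 of the 9 were called lower without siChe-1 replicate 1. It read 6.97 and 7.11 against 9.73 and 9.32, a rise of 2.48 ± 0.18 (SE, adjusted p = 2.65e-05). IFNAR1, the signalling chain for type I interferon, read 9.22 and 9.54 against 8.94 and 8.44, with the siChe-1 arrays below (-0.69, adjusted p = 0.0944). Its partner IFNAR2 and the lambda receptor chain IFNLR1 overlapped, while IL10RB, the other lambda receptor chain, read 8.87 and 8.88 against 8.65 and 8.27.

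Among 19 tested RNA and DNA sensors and their adaptors 11 were called higher and 0 lower, with a median of 0.90 against -0.08 over all genes. RIGI, the helicase that recognises short double-stranded RNA ends, read 6.37 and 6.03 against 11.95 and 11.73, a rise of 5.65 ± 0.18 (SE). IFIH1, which encodes MDA5 and binds long double-stranded RNA, read 7.74 and 7.98 against 12.12 and 11.89. DHX58, a regulator of both helicases, rose by 4.49 and EIF2AK2, the RNA-activated kinase PKR, by 2.40. TLR3, the endosomal sensor, read 4.76 and 4.82 against 8.55 and 7.89. It was the only sensor that passed the filter through its siChe-1 arrays alone. Of the signalling steps behind the sensors, 3 are named here after their values were seen. MYD88, the adaptor of most Toll-like receptors, read 9.67 and 9.66 against 11.16 and 11.13 and was called higher. MAVS, the adaptor of RIGI and IFIH1, read 8.53 and 8.42 against 8.16 and 8.30, and the kinase TBK1 read 8.90 and 9.19 against 9.56 and 8.84, both without a call.

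STAT and IRF factors rose in 6 of 10 tested cases, with a median of 1.43. IRF9, the DNA-binding part of the complex that reads the interferon-stimulated response element, read 6.73 and 6.25 against 9.77 and 9.47, a rise of 3.13 ± 0.20 (SE, adjusted p = 9.5e-06). IRF1 rose by 2.31, IRF7, which amplifies interferon transcription, by 2.04, IRF2 by 1.94, STAT5A by 1.65 and BATF2 by 1.21. IRF3, again named after its value was seen, overlapped between groups, at 8.98 and 8.93 against 9.04 and 8.86. Feedback inhibitors of the pathway were called higher in 4 of 14 cases. SAMHD1, a nucleotide hydrolase that also restrains interferon signalling, read 7.72 and 7.89 against 12.16 and 11.95. TRIM21, an antibody receptor of the cytosol, rose by 3.85, USP18, which removes ISG15 and blocks the type I receptor, by 2.58 and SOCS1, which inhibits JAK kinases, by 2.30. The inhibitors CISH and PIAS2 did not pass the test, at -0.51 and -0.49. When siChe-1 replicate 1 was left out, 3 inhibitors were called lower.

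Nearly every tested antiviral effector rose. In the list of effectors that bind or degrade RNA, 14 of 15 tested genes were called higher. In the list of effectors acting on membranes and capsids, 19 of 19 were. Filtering shaped these counts, since 8 of the 15 and 10 of the 19 passed it only through their siChe-1 arrays. Of the members whose siControl mean was itself above the filter, 6 of 7 and 9 of 9 were called higher, with medians of 2.37 and 3.79. With no filter, 15 of 17 and 19 of 20 were called higher. OAS1 and OAS2, which make the activator of RNase L, rose by 6.47 and 6.12. RSAD2, viperin, which makes a chain-terminating nucleotide, read 4.55 and 4.49 against 10.63 and 10.41. IFI6, which protects the endoplasmic reticulum from viral remodelling, read 6.96 and 7.06 against 12.57 and 12.44. IFITM1, an inhibitor of viral membrane fusion, read 4.88 and 5.04 against 11.49 and 11.51. Since IFITM genes are close copies of each other, the value of a single one is uncertain.

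All 6 tested genes of the ISG15 pathway rose, 4 of them with a siControl mean above the filter. ISG15 is a ubiquitin-like protein that is attached to newly made proteins during an antiviral response. ISG15 itself read 6.80 and 6.77 against 11.05 and 11.50, a rise of 4.49 ± 0.18 (SE). Its activating enzyme UBA7 rose by 2.89 and its conjugating enzyme UBE2L6, at 6.94 and 6.80 against 9.53 and 8.81, by 2.31. The ligase HERC5 rose by 7.33 and its relative HERC6 by 6.22, both from siControl values under the filter. The protease USP18 read 8.29 and 8.08 against 10.79 and 10.74. Messages of genes for activation, transfer and removal were thus higher on both siChe-1 arrays, while the attachment of ISG15 to proteins was not measured.

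Of 13 tested PARP family genes and DTX3L, 5 were called higher, namely PARP14 (6.91), PARP9 (5.63), PARP12 (4.17), DTX3L (3.61) and PARP10 (0.98). PARP14, PARP9 and DTX3L passed the filter only through siChe-1, and of the 10 with a siControl mean above it 2 were called, with a median of -0.03. DTX3L is the ubiquitin ligase that works with PARP9. APOBEC3 and TRIM restriction factors were called higher in 8 of 10 tested cases, with TRIM22 at 6.38, SP110 at 4.32, SP100 at 3.61, TRIM5, a retroviral capsid sensor, at 2.61, PML at 2.60 and TRIM38 at 2.49. Of these 10, 3 passed the filter only through siChe-1. Of the 7 with a siControl mean above it 6 were called, and 6 more members were not tested. Guanylate-binding proteins were mostly under the filter. Of 9 with a probe set 3 were tested, and GBP4 (4.87 and 4.75 against 10.05 and 9.69) and GBP3 (5.24 and 5.28 against 8.83 and 8.59) rose, both passing the filter only through siChe-1. With no filter 4 of the 9 were called higher. The third, ATL3, is an atlastin of the same GTPase superfamily with a role in membrane fusion, and it fell.

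Promoters were read for the letters of the response element that ends this pathway. RefSeq promoters on GRCh38.p14 were used for 10197 of the 12892 tested genes (14540 windows). Not every chromosome was included, so all windows here and below means these 14540 and not all RefSeq promoters. The 250 bases before each start were searched on both strands for GAAA, any 2 bases and a second GAAA. A match was found in 2.32% of all windows, in 15% of those of called rises, in 57.4% of those of rises above 16-fold and in 1.01% of those of called falls. The last 3 sets were picked by their change on these same arrays. Of the 48 rises above 16-fold, 32 had a siControl mean under the filter. The shares are a description, and no difference between them was tested. The windows below belong to rising genes and were chosen after the matches were seen. They are shown because they carry the shared letters: 5′ to 3′ on the strand of the gene, with each match in capitals, and with TTTC in place of GAAA where the match is on the other strand.

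IFIT1, chr10:89392500-89392549, + strand: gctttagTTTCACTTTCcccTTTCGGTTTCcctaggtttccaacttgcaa
ISG15, chr1:1013364-1013419, + strand: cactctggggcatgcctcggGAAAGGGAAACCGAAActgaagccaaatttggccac
MX1, chr21:41431834-41431883, + strand: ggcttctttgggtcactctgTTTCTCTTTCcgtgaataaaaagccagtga
RSAD2, chr2:6877612-6877661, + strand: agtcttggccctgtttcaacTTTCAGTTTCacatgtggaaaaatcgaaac
CXCL10, chr4:76023689-76023738, - strand: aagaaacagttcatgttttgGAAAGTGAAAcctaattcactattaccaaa
IFNL1, chr19:39296173-39296228, + strand: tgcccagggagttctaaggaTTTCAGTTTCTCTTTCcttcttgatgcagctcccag
IFNL2, chr19:39268200-39268249, + strand: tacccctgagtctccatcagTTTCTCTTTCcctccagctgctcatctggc
IFNL3, chr19:39245397-39245446, - strand: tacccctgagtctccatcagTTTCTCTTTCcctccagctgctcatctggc

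The match nearest the start lies 93 bases before it in IFIT1, 97 in ISG15, 135 in RSAD2 and 186 in MX1. It lies 166 bases before in IFNL2 and IFNL3, 198 in IFNL1 and 211 in CXCL10. IFIT2, OAS1 and TRIM22, also among the 15 largest rises, gave no window with a match. Of the 48 rises above 16-fold only 38 had a promoter window, so a gene without a match may not have been searched. IFIT1, ISG15 and IFNL1 each hold 2 matches, and in ISG15 and IFNL1 these overlap. The windows of IFNL2 and IFNL3 are letter for letter the same, as their gene bodies nearly are. A match is a description of the sequence and not a bound site.

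**Figure D3:**
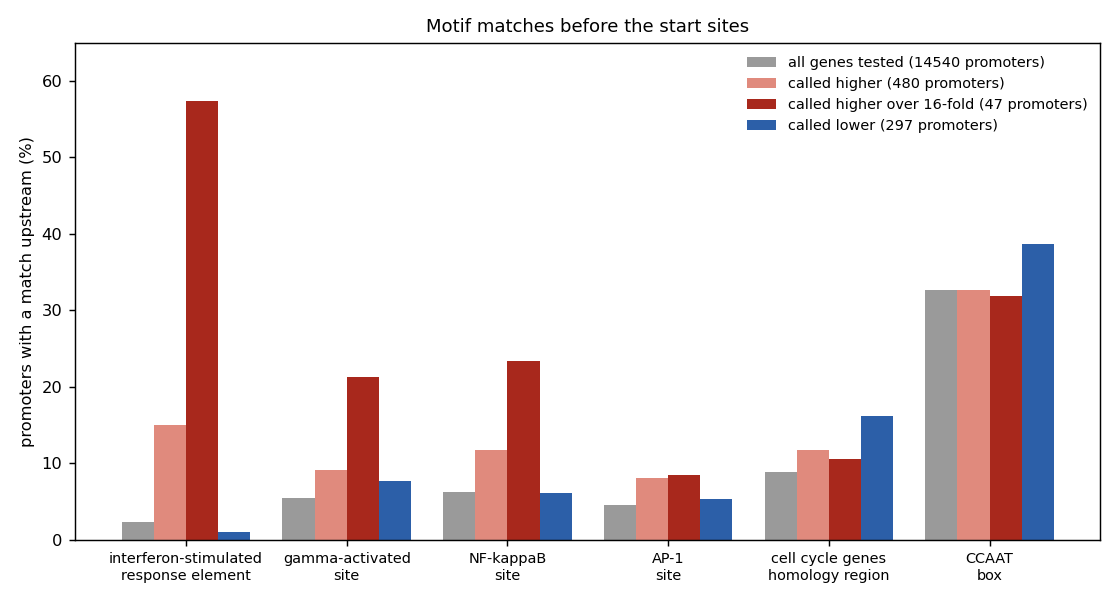
Share of RefSeq promoter windows with at least 1 match in the 250 bases before the start, in percent, for 6 motifs and 4 sets of tested genes. The interferon-stimulated response element reaches 57.4% in rises above 16-fold against 2.32% in all windows, and the cell cycle genes homology region 16.2% in called falls against 8.91%.

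Of 15 tested genes of antigen presentation on class I molecules 13 were called higher, with a median of 1.70, and 11 of the 13 whose siControl mean was above the filter were called. TAP1, which carries peptides into the endoplasmic reticulum, read 8.44 and 8.16 against 11.57 and 11.48, a rise of 3.23 ± 0.17 (SE, adjusted p = 1.87e-06), and TAP2 rose by 2.40. The immunoproteasome subunits PSMB8 and PSMB9 rose by 3.49 and 2.85, the trimming peptidase ERAP2 by 2.19, and NLRC5, the transactivator of class I genes, by 2.29. The general chaperones CALR and CANX were the 2 members without a call, at -0.03 and -0.12. Of 3 tested class II genes 0 passed limma's test, with 0 also at an unadjusted p under 0.05, and 1 was called lower without siChe-1 replicate 1. CIITA, the class II transactivator, overlapped between groups at 6.27 and 6.13 against 5.94 and 6.58.

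Chemokines were called higher in 7 of 13 tested cases, with 4 of the 13 passing the filter only through siChe-1. Of the 9 with a siControl mean above it 3 were called. CXCL10, which draws activated T cells, read 4.70 and 5.08 against 11.64 and 11.44. CCL5 read 5.37 and 5.62 against 11.43 and 11.44, and CXCL11 3.80 and 4.01 against 9.30 and 9.13. CX3CL1, a membrane-bound chemokine, read 7.92 and 7.76 against 10.52 and 10.37. Neutrophil chemokines rose less: CXCL8 by 1.51 and CXCL1 by 1.07. Without siChe-1 replicate 1 the count was 10. Of 12 tested cytokines and TNF family ligands 5 rose, and 8 without siChe-1 replicate 1. TNFSF10, CD274 and IL6 passed the filter only through siChe-1, and of the 9 with a siControl mean above it 2 were called. The count was 3 with a filter at the 50th percentile and 8 with no filter, of 21 with a probe set. TNFSF10, the death ligand TRAIL, read 3.94 and 3.85 against 9.84 and 9.45, CD274, the checkpoint ligand PD-L1, 5.59 and 5.60 against 8.94 and 8.58, and IL6 5.07 and 5.35 against 7.90 and 7.75. TNF rose by 1.74 and CSF1 by 1.54. The complement factor CFB, at 6.56 and 6.21 against 9.76 and 9.73, was the only call among 6 tested complement genes, of which 3 were called higher and 2 lower without siChe-1 replicate 1.

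**Figure D4:**
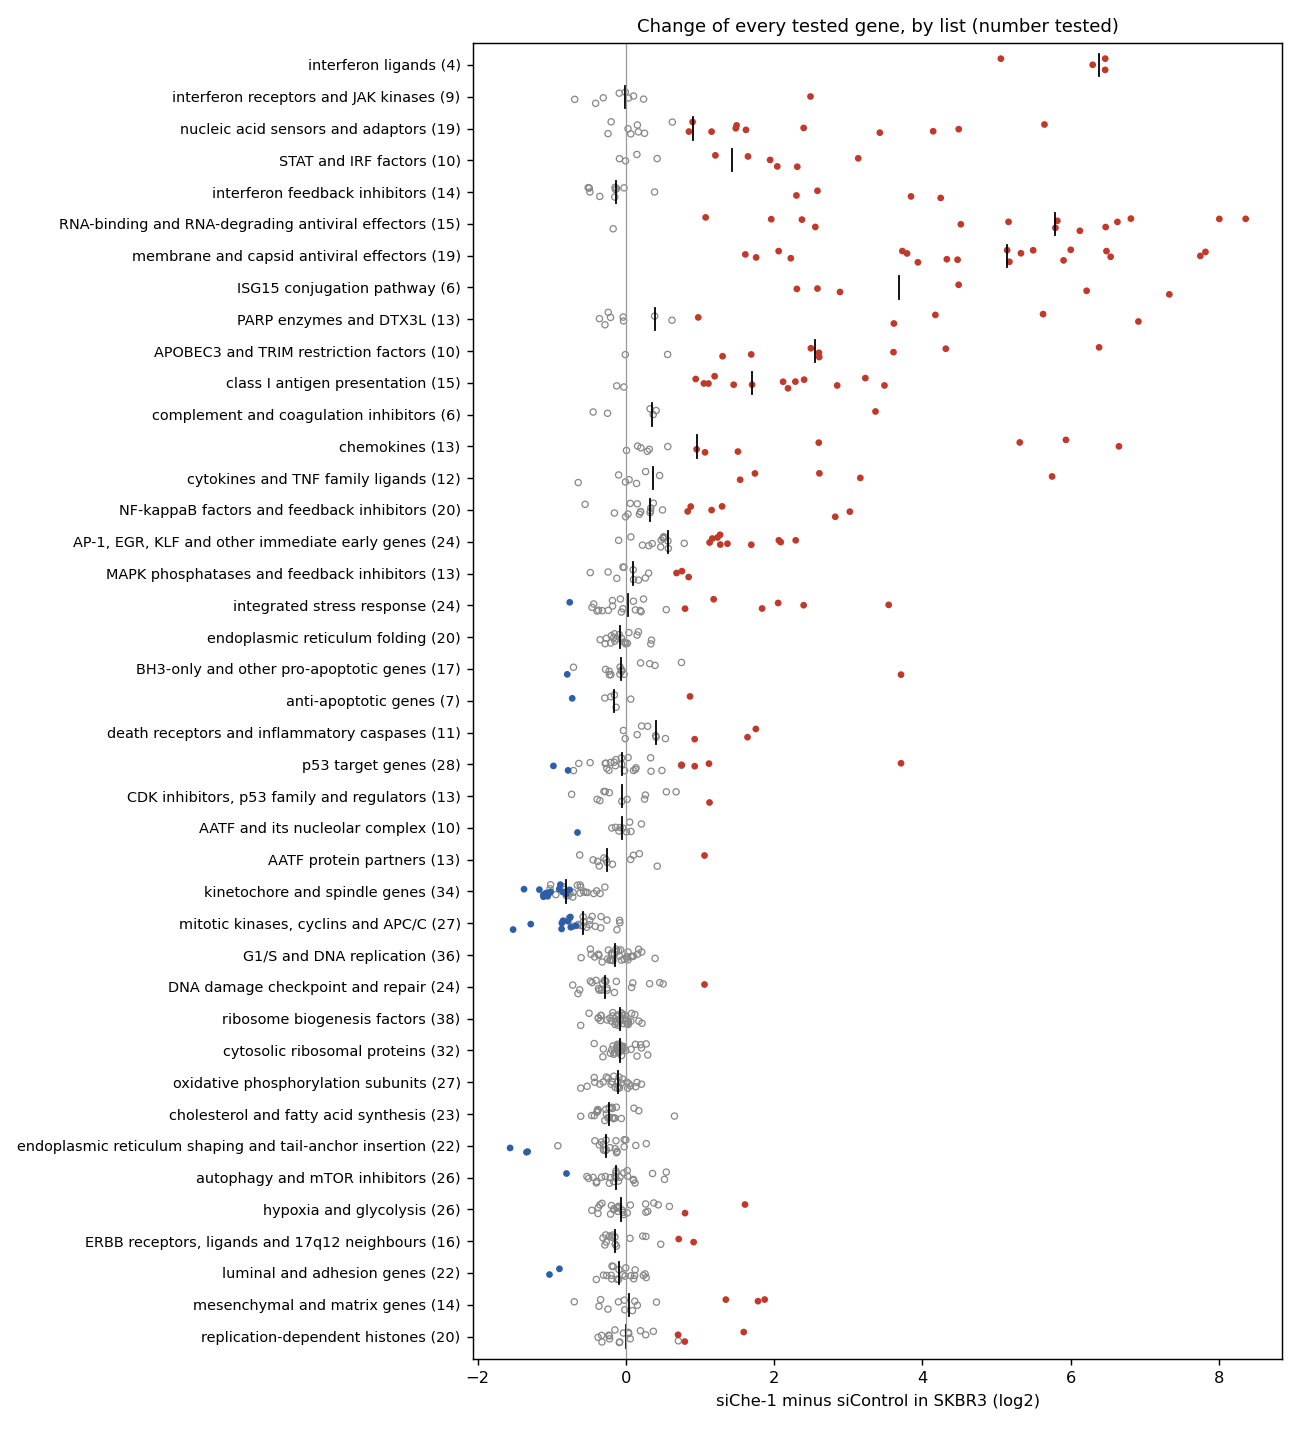
Change of every tested gene in log2 units, for lists with at least 4 tested genes, with the number tested in parentheses, called rises in red, called falls in blue, genes not called as open circles and the list's median as a bar. Interferon effectors lie far to the right, the 2 mitosis lists lie left of 0 as a whole, and lists such as ribosomal proteins and endoplasmic reticulum folding centre near 0 with no call.

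NF-kappaB induces its own inhibitors, and 6 of 20 tested members of this pathway were called higher. The rises were mostly among inhibitors. NFKBIZ, an atypical nuclear inhibitor, read 6.4 and 6.82 against 9.71 and 9.55, a rise of 3.02 ± 0.18 (SE). TNFAIP3, the deubiquitinase A20, read 7.34 and 7.43 against 10.25 and 10.17. NFKBIA, the inhibitor that holds NF-kappaB in the cytoplasm, rose by 1.30, its ally TNIP1 by 1.16 and CYLD by 0.87, the last losing its call without siControl replicate 1. NFKB2 was the only subunit called (0.83), and its call was lost without siControl replicate 2. A search of the same promoter windows for an NF-kappaB site found a match in 36.7% of the windows of this list, called or not. The share was 11.7% among windows of all called rises and 6.3% among all windows. The share of the list describes its members, most of which were not called, and not their change with siChe-1. Windows of 4 rising genes of this response, chosen after the matches were seen, are shown with the match in capitals.

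IFNB1, chr9:21077979-21078028, - strand: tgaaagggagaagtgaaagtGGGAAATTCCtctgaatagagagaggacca
NFKBIA, chr14:35404801-35404850, - strand: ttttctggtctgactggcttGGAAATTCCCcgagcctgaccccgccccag
TNFAIP3, chr6:137867184-137867233, + strand: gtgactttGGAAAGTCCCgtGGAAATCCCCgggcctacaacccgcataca
IL6, chr7:22727107-22727156, + strand: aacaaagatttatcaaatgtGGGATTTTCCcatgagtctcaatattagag

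The match of IFNB1 lies 56 bases before its start and that of IL6 63 bases before, and TNFAIP3 holds 2 matches side by side. CXCL10, whose response element is shown above, also holds 2 matches of this kind.

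Immediate early genes, which are switched on within minutes of a stimulus and need no new protein, were called higher in 10 of 24 tested cases. Of the 24, 22 lay wholly higher on the siChe-1 arrays, against 14.4% of all genes, and the median was 0.57. JUN, a subunit of the AP-1 factor, read 8.12 and 8.08 against 10.18 and 10.14, a rise of 2.06 ± 0.15 (SE, adjusted p = 2.65e-05). An AP-1 site was matched in 0 of the 22 promoter windows of this list, against 4.55% of all windows. ZFP36, which destabilises cytokine messages, read 6.76 and 6.48 against 8.88 and 8.94. KLF4 rose by 2.09, CCN1 by 1.69, FOS by 1.27 and JUNB by 1.24. The count was 19 without siChe-1 replicate 1 and 15 without siChe-1 replicate 2. Of 13 tested MAPK phosphatases and feedback inhibitors DUSP1 (0.85), SPRY4 (0.75) and DUSP5 (0.68) were called, and 1 and 0 remained when siControl replicate 1 and replicate 2 were left out.

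Of 24 tested members of the integrated stress response, which slows translation and induces genes of the factor ATF4, 6 were called higher and 1 lower. PPP1R15A, which encodes the GADD34 phosphatase subunit that reverses the translation block, read 7.08 and 7.21 against 10.69 and 10.69, a rise of 3.54 ± 0.15 (SE). NUPR1 read 9.28 and 9.13 against 11.22 and 11.30, ATF3 rose by 1.84 and CEBPB by 1.18. The remaining rises were EIF2AK2, already given among the sensors, and VEGFA (0.80), whose call was lost without either siControl array. EIF2AK4, the amino acid sensing kinase GCN2, was lower by -0.76 and lost its call in the same way, while 4 members were called lower without siChe-1 replicate 1. The list's median was 0.03. Of 20 tested endoplasmic reticulum folding genes 0 passed limma's test, with 0 also at an unadjusted p under 0.05, and 2 were called lower without siChe-1 replicate 1. XBP1, the factor that drives that programme, read 11.69 and 11.61 against 12.07 and 11.93.

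Among 17 tested pro-apoptotic genes PMAIP1 was the only call higher, and among 7 anti-apoptotic genes MCL1 was. PMAIP1 encodes NOXA, a BH3-only protein that neutralises MCL1, and it read 5.46 and 5.43 against 9.43 and 8.89, a rise of 3.71 ± 0.20 (SE, adjusted p = 2.51e-06), from a siControl level under the filter. BBC3, which encodes PUMA, read 7.70 and 7.30 against 8.05 and 8.45 (0.75, adjusted p = 0.0692), and APAF1, the apoptosome scaffold, 7.07 and 7.23 against 6.61 and 6.28 (-0.71, adjusted p = 0.0525). CASP6, an executioner caspase, was lower by -0.79. MCL1, the anti-apoptotic target of NOXA, read 10.53 and 10.56 against 11.47 and 11.34 (0.86), and BIRC5, survivin, was lower by -0.72. The calls of CASP6, MCL1 and BIRC5 were lost without either siControl array. Without siChe-1 replicate 1, 3 pro-apoptotic genes were called in each direction and 4 anti-apoptotic genes were called lower. Of 11 tested death receptor and inflammatory caspase genes MLKL, the executor of necroptosis, rose by 1.75, CASP4 by 1.64 and the TRAIL receptor TNFRSF10B by 0.93, the last losing its call without siControl replicate 2. The count was 2 without that array and 6 either with no filter or with the filter set over all 10 arrays. Of the 6 members under the filter 4 lay wholly higher on the siChe-1 arrays, against 14.4% of all genes tested. The share over all genes under the filter was not taken, so this count is no result about the list.

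Targets of p53 were called in both directions. Of 28 tested, 4 were called higher and 2 lower, with a median of -0.06 against -0.08 over all genes. CDKN1A, which encodes the cell cycle inhibitor p21, read 7.16 and 7.17 against 8.28 and 8.29, a rise of 1.12 ± 0.15 (SE, adjusted p = 0.00206) with replicates within 0.02 of each other. PMAIP1 and TNFRSF10B are given above, and GADD45B was higher by 0.75. ZMAT3 and CYFIP2 were lower, by -0.98 and -0.78. ZMAT3 lost its call without siControl replicate 1, and GADD45B and CYFIP2 theirs without either siControl array. The count was 2 higher without siControl replicate 2, 0 lower without siControl replicate 1 and 7 lower without siChe-1 replicate 1. MDM2, the target that degrades p53, read 9.36 and 9.57 against 9.29 and 9.08 (-0.28, adjusted p = 0.385). TP73, a p53 relative, overlapped at 6.77 and 6.51 against 6.64 and 7.14. CHEK2, a DNA damage kinase reported to phosphorylate Che-1, was the only call among 13 protein partners of AATF and the only one among 24 checkpoint and repair genes, at 7.81 and 7.73 against 8.96 and 8.68. If siChe-1 replicate 1 was left out, 5 partners and 12 checkpoint and repair genes were called lower.

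Genes of mitosis were lower on the siChe-1 arrays. Of 34 tested kinetochore and spindle genes 12 were called lower and 0 higher, with a median of -0.81, and 32 lay wholly lower on the siChe-1 arrays, against 37.6% of all genes. Of 27 tested mitotic kinases, cyclins and regulators of the anaphase-promoting complex 9 were called lower and 0 higher, with a median of -0.58, and 24 lay wholly lower. All 61 had a siControl mean above the filter. NUF2, which links kinetochores to microtubules, read 9.24 and 9.39 against 8.40 and 7.47, and its partner NDC80 read 7.66 and 7.91 against 6.96 and 6.50. CENPF read 10.38 and 10.49 against 9.50 and 9.20, a fall of 1.08 on the log2 scale, and ASPM, a spindle pole protein, fell by 1.11. CENPE, a kinetochore motor, read 8.28 and 8.55 against 7.56 and 6.94. All 5 kept their calls when any single array was left out.

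DEPDC1 read 9.53 and 9.91 against 8.59 and 7.80, the deepest fall of these lists at -1.52 ± 0.25 (SE, adjusted p = 0.00784), and PRR11 read 8.11 and 8.32 against 7.11 and 6.75. TOP2A, which untangles chromosomes, read 10.99 and 11.15 against 10.37 and 10.03, and CCNA2, cyclin A, 9.89 and 9.93 against 9.29 and 9.03. The siControl arrays were close together for these genes and siChe-1 replicate 2 was the lowest array throughout. It lay below replicate 1 for 59 of the 61 genes. Counts depended on which array was left out: without siControl replicate 2 they were 7 and 2 in the 2 lists, without siChe-1 replicate 1 they were 34 and 22, and without siChe-1 replicate 2 they were 19 and 10. TOP2A, CEP55, DEPDC1B and KIF20A lost their calls without siControl replicate 2, and CCNA2 without either. In RNA from whole cultures, fewer cells in mitosis and less of these messages per cell cannot be told apart.

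**Figure D5:**
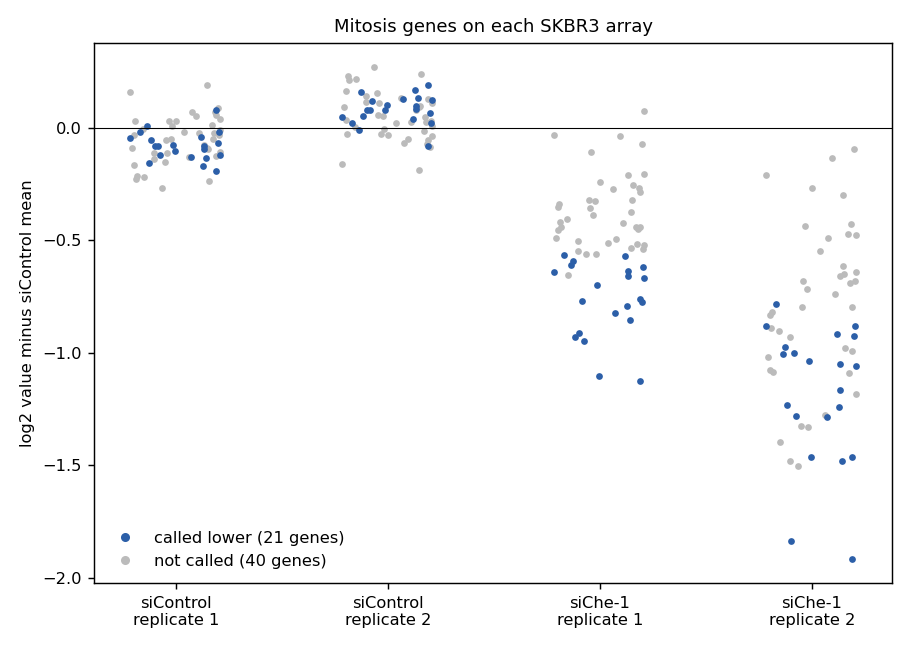
Log2 value minus the siControl mean for the 61 tested genes of the 2 mitosis lists on each SKBR3 array, with one point per gene and the 21 called genes in blue. Nearly all points lie below 0 on both siChe-1 arrays, and lower on replicate 2 than on replicate 1.

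Promoters of mitosis genes are known for the cell cycle genes homology region, read here as TTTGAA on either strand, and for CCAAT boxes bound by NF-Y. The homology region was matched in 40% of the windows of the 2 mitosis lists, 16.2% of those of all called falls and 8.91% of all windows. CCAAT was matched in 70%, 38.7% and 32.6%. The windows below, chosen after the matches were seen, belong to called genes with a match, which is in capitals.

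DEPDC1, chr1:68497084-68497129, - strand: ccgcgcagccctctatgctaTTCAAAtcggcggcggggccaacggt
BUB1B, chr15:40161026-40161068, + strand: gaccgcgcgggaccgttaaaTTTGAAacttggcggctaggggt
KIF23, chr15:69414274-69414319, + strand: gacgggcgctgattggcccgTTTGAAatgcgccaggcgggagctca
CCNB2, chr15:59105097-59105142, + strand: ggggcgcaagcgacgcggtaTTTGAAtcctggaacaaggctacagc
CDC25C, chr5:138331809-138331854, - strand: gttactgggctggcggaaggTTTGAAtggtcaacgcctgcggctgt

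BUB1B, a spindle checkpoint kinase, read 9.41 and 9.25 against 8.57 and 7.87. KIF23, a motor of the midbody, read 10.22 and 10.20 against 9.60 and 9.20. CCNB2, cyclin B2, read 9.73 and 10.04 against 9.29 and 8.91, and CDC25C, the phosphatase that opens mitosis, 6.98 and 7.06 against 6.45 and 6.10. KIF23 and CDC25C lost their calls without either siControl array and CCNB2 its call without siControl replicate 2. These 5 matches lie within 49 bases of the start, but that holds only for the windows shown. The nearest matches of ASPM, CEP55 and TOP2A lie 107, 110 and 145 bases before the start, and that of PRR11 5 bases before. NUF2, NDC80, CENPE and CENPF, also called lower, gave no window with a match. Of the 61 tested mitosis genes 54 had a promoter window, so some of these may not have been searched.

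Genes of the earlier cell cycle did not pass. Of 36 tested G1/S and DNA replication genes 0 were called by limma, with 1 higher and 6 lower at an unadjusted p under 0.05, and the median was -0.14. RRM2, the S-phase ribonucleotide reductase subunit, read 9.39 and 9.55 against 9.17 and 8.82. Without siChe-1 replicate 1, lower calls appeared in this list, as they did among all genes. Ribosome assembly, in which AATF itself takes part, gave 0 calls among 38 tested factors (0 higher and 3 lower at an unadjusted p under 0.05, median -0.08), and 8 were called lower without siChe-1 replicate 1. Cytosolic ribosomal proteins gave 0 calls among 32, with 0 at an unadjusted p under 0.05. Oxidative phosphorylation gave 0 of 27 (0 higher and 5 lower unadjusted) and cholesterol and fatty acid synthesis 0 of 23 (1 higher and 7 lower unadjusted). Without siChe-1 replicate 1, the ribosomal proteins gave 2 higher calls and 1 lower, and the last 2 lists 5 and 10 lower.

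The deepest falls were not all of the mitotic kind. The 15 deepest were ATPSCKMT, ATL3, SLC9A2, DEPDC1, CEP20, FUT9, NUF2, SLC40A1, GET1, REEP1, PRR11, BLOC1S6, CLGN, EEIG2 and GASK1B. ATPSCKMT, a methyltransferase of the mitochondrial ATP synthase, read 9.09 and 9.31 against 7.75 and 7.36, a fall of 1.64 on the log2 scale (SE 0.18, adjusted p = 0.000573). SLC9A2, a sodium-proton exchanger, read 7.74 and 7.69 against 6.43 and 5.92. SLC40A1, ferroportin, the exporter of cellular iron, read 8.26 and 8.38 against 7.19 and 6.75. FUT9, which makes Lewis antigens, read 7.32 and 7.74 against 6.35 and 5.83. AATF fell less than 226 of the 235 called falls.

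Of 22 tested genes that shape the endoplasmic reticulum or insert tail-anchored proteins into it 3 were called lower. ATL3, a membrane fusion GTPase, read 9.06 and 9.26 against 7.88 and 7.32. GET1, part of the receptor that takes up such proteins, read 8.74 and 8.85 against 7.72 and 7.19, and REEP1, which curves the membrane, 8.04 and 7.70 against 6.79 and 6.29. These 3 are also among the 15 deepest falls, and the list was drawn up with that known, so its count is no independent evidence. The list's median was -0.27, and 8 were called lower without siChe-1 replicate 1. DEPTOR, an inhibitor of mTOR, read 8.19 and 8.27 against 7.44 and 7.41 and was the only call among 26 autophagy and mTOR inhibitor genes, lost without either siControl array. Leaving out siChe-1 replicate 1 gave 9 lower calls among them.

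Of 22 tested luminal and adhesion genes 2 were called, both lower. ELF5, a factor of luminal progenitors, read 7.99 and 8.0 against 7.01 and 6.92 (-1.03, adjusted p = 0.00379), and AGR2, a luminal disulfide isomerase, read 7.41 and 7.56 against 6.81 and 6.37, with its call lost without siControl replicate 2. ERBB2 read 12.40 and 12.27 against 12.15 and 12.16 (-0.18, adjusted p = 0.572). Of 16 ERBB receptors, ligands and neighbours the ligands HBEGF (0.91) and BTC (0.71) were called, BTC only with both siControl arrays present. FN1, fibronectin, read 5.88 and 5.85 against 7.84 and 7.63, PLAUR, the urokinase receptor, rose by 1.78 and SNAI1, a repressor of epithelial genes, by 1.35, the 3 calls among 14 tested mesenchymal genes. ADM, adrenomedullin, rose by 1.61, and with VEGFA was 1 of 2 calls among 26 hypoxia and glycolysis genes, of which 5 were called higher without siChe-1 replicate 1. Of 20 replication-dependent histone genes H3C3 (1.59), H2BC21 (0.79) and H2AC11 (0.70) were called. Histone genes are near-identical copies, and the calls of H2BC21 and H2AC11 were lost without either siControl array.

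The SKBR3 response was then set against that of MDA-468 in a single fit over all 10 arrays. The change differed between the lines for 2167 of 12892 genes (16.8%), more positive in SKBR3 for 952 (7.38%) and less so for 1215 (9.42%), and 229 of the 416 SKBR3 rises and 95 of the 235 falls were among them. The count was 1204 without SKBR3 siControl replicate 2 and 3679 without siChe-1 replicate 1. AATF changed by -0.66 in SKBR3 and -1.71 in MDA-468, a difference of 1.05 ± 0.12 (SE, limma adjusted p = 0.000292). Interferons rose further in SKBR3, and a link with the AATF change was not tested. IFNB1 rose by 6.30 and 3.93, a difference of 2.37 ± 0.22 (SE, adjusted p = 7.01e-05), and IFNL1 by 6.47 and 4.85, a difference of 1.61. IFNL2 and IFNL3 differed by 2.09 and 1.61.

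The genes with the largest surplus in SKBR3 were TNFSF10, PARP14, MX1, PARP9 and IFITM1. TNFSF10 changed by 5.75 in SKBR3 and by 1.30 in MDA-468, with a siControl mean there of 10.91 ± 0.05 (SD, n = 3). MX1 changed by 7.75 and 4.35, with an MDA-468 siControl mean of 8.43 ± 0.06 (SD, n = 3), and PARP14 by 6.91 and 2.56 from 9.52 ± 0.04 (SD, n = 3). In SKBR3 all 5 started under the filter level. Those with the largest shortfall were GASK1B, IFI44L, ITGA5, IL6 and CTH. GASK1B, a Golgi protein, fell by 1.22 in SKBR3 and rose by 1.96 in MDA-468. IFI44L rose by 4.47 from 7.52 and 7.5 in SKBR3 and by 7.51 from 5.24 ± 0.25 (SD, n = 3) in MDA-468. IL6 rose by 2.61 and 5.19. ITGA5, the fibronectin receptor chain, read 6.48 and 6.5 against 7.0 and 6.80 in SKBR3, without a call, and rose by 3.01 in MDA-468. CTH, an enzyme of cysteine synthesis, changed by -0.65 in SKBR3, without a call, and by 1.86 in MDA-468. CDKN1A rose by 1.12 and 1.19, a difference of -0.07 ± 0.11 (SE, adjusted p = 0.716).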

How the data were processed

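Per the submitters' processing notes, the authors used Affymetrix Expression Console and RMA, which corrects background, quantile-normalizes arrays and summarises probes, and they deposited log2 values. No source used here gives versions or says which arrays shared a normalization. Of 33297 probe sets 19460 had 1 gene symbol in the platform annotation, 1754 several and 12083 none named there; 19429 symbols were updated through RefSeq gene IDs. Each gene was read from its brightest probe set on average over the 4 SKBR3 arrays (18417 genes, 769 with several), and genes under the 30th percentile of that mean (5.68) were left out. The 4 arrays were fitted alone with limma 3.58.1 (lmFit, eBayes) in R 4.3.3, with 2 residual and 7.19 prior degrees of freedom. The difference between lines came from a fit of 4 groups over 10 arrays. P-values were Benjamini-Hochberg adjusted over 12892 genes, with a threshold of 0.05. The fits were tested on simulated data. The comparison and its 43 gene lists and 6 marker lists were chosen with earlier results of these data known. Genes were named by rule: AATF, CDKN1A, TP73, MDM2 and ERBB2, the 15 largest changes each way among called genes whose arrays did not overlap, for each list up to 6 members by smallest p and those behind a count of 5 or fewer, the 5 largest differences between lines each way, and all members of 4 lists. Others were chosen after their values were seen. The median value of an array was 6.36 to 6.45 for SKBR3 but 6.87 to 6.94 for MDA-468, so only changes were tested across lines. Starting levels given for both lines may differ through this scale. The number of arrays limits the precision. Other settings are given in the closing section.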

Additional observations from a re-analysis of the deposited data

Results flagged for a closer look

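For 15 of the 19 tested genes whose change is given in both lines, the change in SKBR3 differed from that in MDA-468 in the limma fit over 10 arrays. The SKBR3 change was more positive for TNFSF10 by 4.45, PARP14 by 4.35, MX1 by 3.40, PARP9 by 3.25 and IFITM1 by 3.08 on the log2 scale. It was also more positive for IFNB1 by 2.37, IFNL2 by 2.09, IFNL1 by 1.61, IFNL3 by 1.61 and AATF by 1.05. It was less positive for GASK1B (-3.18), IFI44L (-3.03), ITGA5 (-2.60), IL6 (-2.58) and CTH (-2.51). The first and last 5 genes were named for their difference.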

How the results depend on the processing

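The 651 calls became 2973 with all 10 arrays in the fit (812 higher, 2161 lower) and 1004 with a trended prior (527 lower), while the lower calls became 410 with a filter at the 50th percentile. Leaving out 1 array gave 383 to 4214 calls, 320 to 1184 higher and 62 to 3030 lower. The lone array left in an arm is then assumed to vary like the other group. Replicate numbers are shared by the groups, but no label says that they mark a common batch, so they share only a number. With the replicate block there were 491 calls (139 lower) and 824 differences between lines against 2167. Deviations of same-numbered arrays correlated at -0.56, and the crossed pairing, added after the data were seen, gave 3190 calls (839 higher, 2351 lower). Leaving out 1 SKBR3 array gave 1204 to 3679 differences. The AATF change of -0.66 had an adjusted p of 0.0558 with no filter and 0.132 with the replicate block, and changes of -0.60 to -0.72 without 1 array (adjusted p 0.00104 to 0.382). The cause of these moves was not tested. All 140 called genes named by rule kept their direction in each of the 15 alternatives in which they were fitted. Of the 651 calls, 287 (244 higher, 43 lower) held in all 15. A call whose gene was filtered out of an alternative was counted as not held there, so not all the others lost significance. Quantile normalization again and median centring shifted the median of all genes to -0.06 and -0.11. Requiring a 1.5-fold change as well left 651. Probe sets near background limit what can be said of genes under the filter.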

Other observations

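Small nucleolar RNA genes, grouped by symbol after the data were seen, leaned one way. Of 115 box C/D genes, whose RNAs guide methylation of ribosomal RNA and mostly lie in introns of host genes, 60 passed the filter. Of these, 6 were called higher and 0 lower in limma, and 22 (36.7%) lay wholly higher and 0 wholly lower on the siChe-1 arrays, against 14.4% and 37.6% of all genes. SNORD14E read 6.99 and 7.26 with siControl and 9.04 and 8.63 with siChe-1, and SNORD12C 8.91 and 9.32 against 10.62 and 10.31. SNORD74 read 10.52 and 10.85 against 11.58 and 11.63, and SNORD43 9.48 and 9.55 against 10.36 and 10.27. Several of these genes are near-identical copies, so single values are uncertain. SNORD74 lost its call without siControl replicate 1 and SNORD43 without either siControl array. On siChe-1 replicate 2 the signal was below replicate 1 for 56 of the 60. Of 54 tested box H/ACA genes, which guide pseudouridylation, SNORA57 was the only call (0.66), lost without either siControl array, and 11 lay wholly higher and 0 wholly lower.

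Of 55 tested microRNA genes, whose probe sets read the gene region rather than the mature RNA, 3 were called higher and 1 lower, while the shares over all genes tested were 3.23% and 1.82%. MIR191 and its neighbour MIR425 were higher by 0.73 and 0.92, and MIR181B1 was lower by -0.78, at 6.31 and 6.56 against 5.49 and 5.82. All 3 lost their calls without siControl replicate 2, and MIR191 also without siControl replicate 1.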
